A study of Arabidopsis thaliana with 12 samples.

Results

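Nuclear genes for the proteins of both photosystems and their antennae were followed in whole seedlings of Arabidopsis thaliana (accession Nossen, No-0) by RNA sequencing. Members were the rows of the deposited count table that lie on chromosomes 1 to 5 and carry the word photosystem, light harvesting or chlorophyll A/B in their description, which gave 57 of 32673 rows. By the described protein they fell into 5 antenna genes of photosystem I (LHCA), 14 antenna genes of photosystem II (LHCB), 13 subunits of photosystem I, 12 subunits of photosystem II, and 13 assembly factors and PsbP-like proteins. Genes described in other words, such as PSBS, were not members. Of the 57 members 56 passed the filter on low counts, and AT4G37230, described as a putative PsbO protein, did not, with 0 to 7 counts in any library.

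Each of 4 groups held 3 of the 12 libraries. Wild type was set beside a line expressing KNAT1, a homeodomain transcription factor of the shoot meristem, from the 35S promoter (35S::KNAT1), and both were sampled with and without gibberellin. Seedlings were 7 days old, had grown in continuous light, and were all held for 18 h in 10 µM paclobutrazol (PAC), an inhibitor of gibberellin synthesis. A further 5 h followed in 10 µM PAC alone or with 100 µM gibberellin A3 (PAC+GA3). No group was free of PAC, and the 35S promoter is active in most cell types, so the transgene was not confined to the tissue where KNAT1 normally acts. The labels do not say whether replicates were separate cultures or how many transgenic lines were used, so a p-value here reflects how far these particular libraries scatter, and that scatter may be technical.

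Photosystem II splits water and photosystem I reduces ferredoxin; both are built from subunits encoded in the plastid and in the nucleus. Nuclear subunits are made in the cytosol and imported, among them the oxygen-evolving proteins PsbO, PsbP and PsbQ on the lumen side of photosystem II. The Lhca and Lhcb proteins bind chlorophyll and carotenoids and pass light energy to the reaction centres, and their genes are among the most strongly expressed in leaves and are induced by light.

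Totals ran from 9232836 to 14053594 counts per library. KNAT1 lay between 17.6 and 24.6 CPM (counts relative to library total, scaled by edgeR's TMM factors) in the 6 wild-type libraries and between 389 and 483 CPM in the 6 libraries of the 35S::KNAT1 line, as the labels say. Wild-type PAC replicates 2 and 3 and 35S::KNAT1 PAC+GA3 replicate 1 stood apart by organelle counts, which took 0.944%, 0.676% and 0.868% of the total against 0.139% to 0.263% in the other 9 libraries. The members' median differences are given with and without these libraries below, and so are the counts of members called under PAC+GA3. Values and p-values of single genes are given with them only. Both leaf genes and root markers were expressed, as whole seedlings should show: the sum of 6 root hair markers ran from 47.4 to 79.0 CPM in wild type under PAC and from 83.5 to 96.6 CPM in 35S::KNAT1 under PAC.

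The photosystem and light-harvesting genes were lower in 35S::KNAT1 seedlings than in wild type, in both media. Together they took 6.59%, 6.98% and 7.67% of all counts in wild type under PAC and 4.22%, 3.80% and 5.29% in 35S::KNAT1 under PAC. With GA3 their share was 6.91%, 8.92% and 8.66% in wild type and 4.53%, 3.96% and 5.62% in 35S::KNAT1. The wild-type and 35S::KNAT1 libraries did not overlap in either medium. In these bulk samples fewer green cells and less RNA per cell cannot be told apart.

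**Figure D1:**
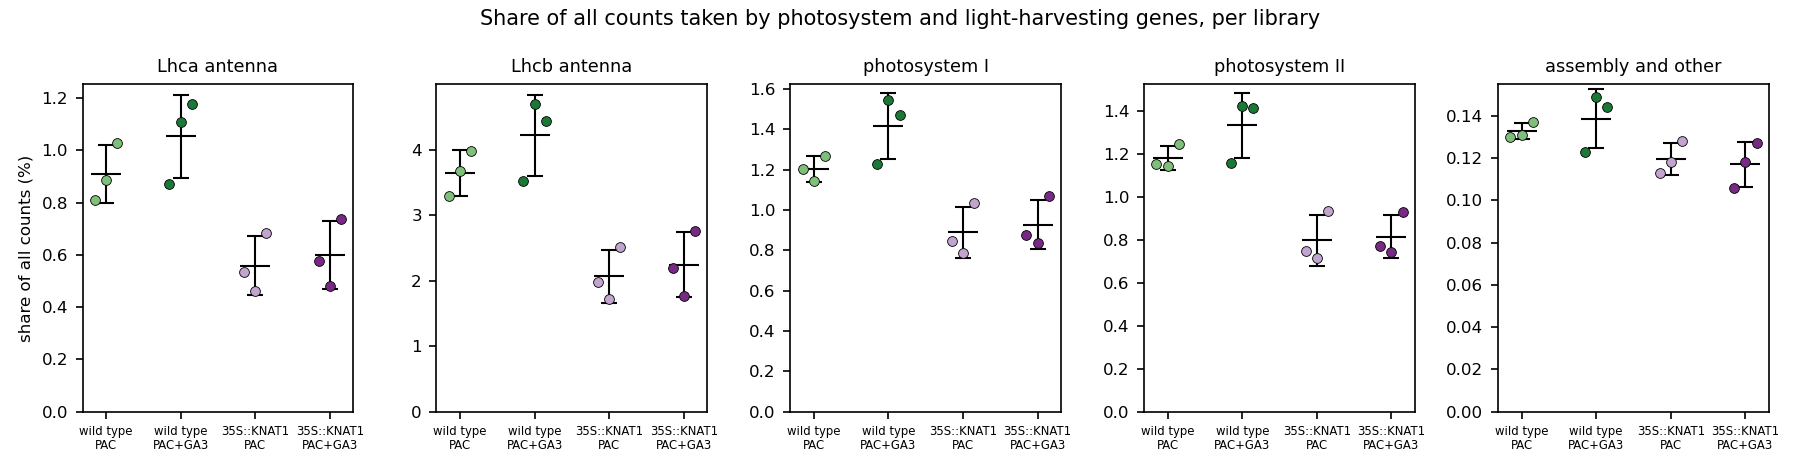
Share of all counts (%, from 0) taken by each role group of the 57 members, 1 point per library, with the mean and SD of 3 replicates as bars. The Lhcb antenna genes lay between 3.29% and 4.70% in the 6 wild-type libraries and between 1.72% and 2.76% in the 6 libraries of 35S::KNAT1, while the group of assembly factors and PsbP-like proteins differed least, at 0.123% to 0.149% against 0.106% to 0.128%.

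Under PAC 43 of the 56 tested members fell in 35S::KNAT1 against wild type and 1 rose, by edgeR's quasi-likelihood test with Benjamini-Hochberg adjustment over 19879 genes at a threshold of 0.05. Over all genes tested 12.9% were called lower and 12.3% higher in this comparison. When scaled by total counts 41 members fell, against 1872 of 19879 genes tested. Of the calls over all genes 67.4% were then in the higher direction, against 48.7% under TMM scaling. The median log2 difference of the members was -0.57, against 0.00 over all genes, and the differences ran from -1.60 to 0.37. All 3 libraries of 35S::KNAT1 lay below all 3 of wild type in 45 members, which 19.8% of all genes did. Under PAC+GA3 45 members fell and 1 rose, against 13.6% of all genes called lower and 12% called higher. There the median was -0.78, the range -1.66 to 0.29, and 45 members had every 35S::KNAT1 library below every wild-type library, against 19.2% of all genes.

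All 43 members called lower under PAC were also called lower under PAC+GA3, which is 100% of the first list and 95.6% of the second. The 2 added with GA3 were CAB3 and LPA19. Across the 56 members the genotype difference under PAC and that under PAC+GA3, which share no library, had a Pearson's r of 0.94 and a Spearman's rho of 0.92. The same overlap and correlation were not computed over all genes, so neither is shown to be particular to the members. The difference lay further below 0 under PAC+GA3 in 53 members, and it was -1 or lower on the log2 scale in 7 called members under PAC and in 12 under PAC+GA3. The test of this shift itself is given with the GA3 results. Without the 3 libraries of high organelle share wild type under PAC was 1 library, so members called under PAC are not counted there. Under PAC+GA3 that fit called 42 members lower and 1 higher, against 20.7% of all genes called in either direction. The members' median difference was then -0.58 under PAC and -0.75 under PAC+GA3, and no called member changed sign.

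**Figure D2:**
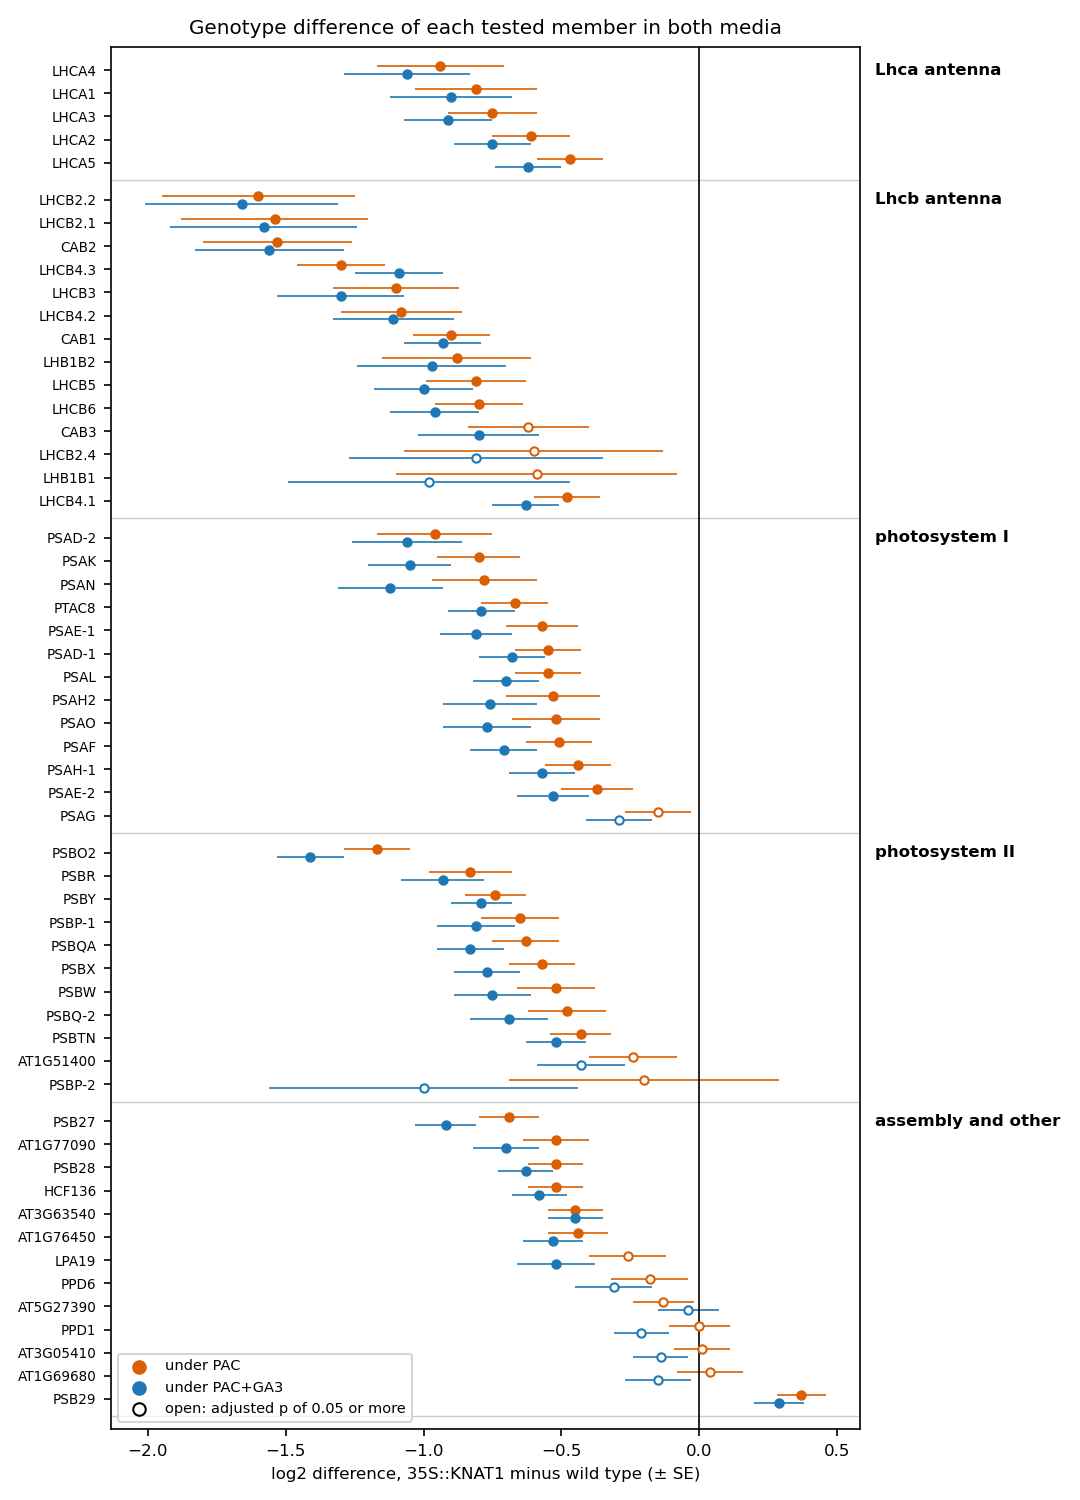
Log2 difference between 35S::KNAT1 and wild type (x axis, ± SE of the edgeR fit, 3 against 3 libraries) for each of the 56 tested members, by role, under PAC (orange) and PAC+GA3 (blue). Filled points passed the adjusted threshold of 0.05, and PSB29 is the only member with filled points above 0.

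The Lhcb antenna genes had the largest falls. Of 14 members 11 fell under PAC, with a median of -0.89, and 12 fell under PAC+GA3, with a median of -0.99. Their summed level moved from 34489 to 40694 CPM in wild type under PAC to 16156 to 24574 CPM in 35S::KNAT1 under PAC. LHCB1 proteins form most of the mobile trimeric antenna (LHCII), and 5 members encode them. CAB1 (AT1G29930), per length of transcript the highest of all members, stood at 11920, 12620 and 12880 CPM in wild type under PAC and at 6267, 5979 and 7840 CPM in 35S::KNAT1. With GA3 it stood at 11690, 15660 and 13880 CPM in wild type and at 7243, 6193 and 8230 CPM in 35S::KNAT1. The genotypes were separate in both media, with log2 differences of -0.90 ± 0.14 (SE, adjusted p = 0.000124) and -0.93 ± 0.14 (adjusted p = 8.26e-05).

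CAB2 (AT1G29920) and CAB3 (AT1G29910) neighbour CAB1 on chromosome 1, with 4705 bases between CAB3 and CAB1. CAB2 stood at 2948, 2837 and 3175 CPM in wild type and 1111, 693 and 1304 CPM in 35S::KNAT1 under PAC, a log2 difference of -1.53 ± 0.27 (adjusted p = 0.00154). CAB3 stood at 3609, 4550 and 5165 CPM in wild type and 2842, 2238 and 3574 CPM in 35S::KNAT1, a log2 difference of -0.62 ± 0.22 that missed the threshold (adjusted p = 0.0569). With the replicate number as a block CAB3 passed (adjusted p = 0.0239), though the labels do not say whether these numbers pair the samples. CAB2 made up 14.2% to 16.0% of the summed counts of the 3 genes in the 6 wild-type libraries and 7.78% to 11.2% in the 6 libraries of 35S::KNAT1, without overlap. These genes are near copies: 17% of the 50-base windows of CAB1, 20.5% of those of CAB2 and 10.6% of those of CAB3 occur elsewhere in the genome, so reads could have been split between them. Their sum, which such splitting leaves in place, was 19900 ± 1370 CPM (SD) in wild type and 10620 ± 1930 CPM in 35S::KNAT1 under PAC, and 22500 ± 3470 CPM and 11430 ± 2150 CPM with GA3.

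The other Lhcb1 pair lies on chromosome 2. LHB1B2 (AT2G34420) stood at 4080, 5311 and 5183 CPM in wild type and at 2586, 1949 and 3369 CPM in 35S::KNAT1 under PAC, a log2 difference of -0.88 ± 0.27 (adjusted p = 0.0332) that missed the threshold with the replicate block (adjusted p = 0.0563). LHB1B1 (AT2G34430), 1187 bases away, varied widely among wild-type replicates, at 390, 610 and 1010 CPM against 395, 288 and 653 CPM in 35S::KNAT1. Its groups overlapped and its log2 difference of -0.59 ± 0.51 did not pass (adjusted p = 0.462). Of the 50-base windows of LHB1B2 17.3% occur elsewhere, and of those of LHB1B1 13.7%, so reads could have been split between this pair too. Their sum ran from 4470 to 6193 CPM in wild type and from 2237 to 4022 CPM in 35S::KNAT1 under PAC. With GA3 it ran from 5272 to 8333 CPM and from 2235 to 4731 CPM.

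LHCB2 proteins are among the LHCII subunits that the STN7 kinase phosphorylates when energy is shifted between the photosystems. LHCB2.2 (AT2G05070) stood at 1264, 1295 and 1592 CPM in wild type and 469, 277 and 625 CPM in 35S::KNAT1 under PAC, the largest fall of any member at -1.60 ± 0.35 (adjusted p = 0.00917). LHCB2.1 (AT2G05100), 22847 bases away on chromosome 2, fell by 1.54 on the log2 scale (SE 0.34, adjusted p = 0.0094). Of the windows of LHCB2.2 28.2% occur elsewhere, and of those of LHCB2.1 22.7%, and their summed level ran from 2475 to 2973 CPM in wild type and from 537 to 1176 CPM in 35S::KNAT1 under PAC. LHCB2.4 on chromosome 3, described in the table as gene 2.3, was lower per length, at 132 CPM per kb over all libraries against 972 for LHCB2.2, overlapped between genotypes and did not pass in either medium (adjusted p = 0.417 and 0.259). LHCB3, the third kind of LHCII subunit, stood at 2152, 2029 and 2643 CPM in wild type and 1019, 769 and 1391 CPM in 35S::KNAT1 under PAC (log2 difference -1.10 ± 0.23, adjusted p = 0.00437).

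The minor antennae, which link LHCII to the core of photosystem II, fell as well. LHCB5 fell by 0.81 (SE 0.18) and LHCB6 by 0.80 (SE 0.16) on the log2 scale under PAC. Among the 3 genes for LHCB4, LHCB4.1, the highest per length, fell least under PAC, by 0.48 (SE 0.12). LHCB4.2 fell by 1.08 (SE 0.22) and LHCB4.3, a gene of very low level, by 1.30 (SE 0.16, adjusted p = 1.12e-05). The order of these last 2 did not repeat with GA3. There the log2 ratio to LHCB4.1 shifted between genotypes by -0.5 for LHCB4.2 and by -0.46 for LHCB4.3. LHCB4.3 stood at 12.1, 9.66 and 9.60 CPM in wild type and at 4.22, 3.75 and 4.87 CPM in 35S::KNAT1 under PAC, and its difference was -1.09 ± 0.16 with GA3. Its wild-type and 35S::KNAT1 libraries were fully separate in both media.

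**Figure D3:**
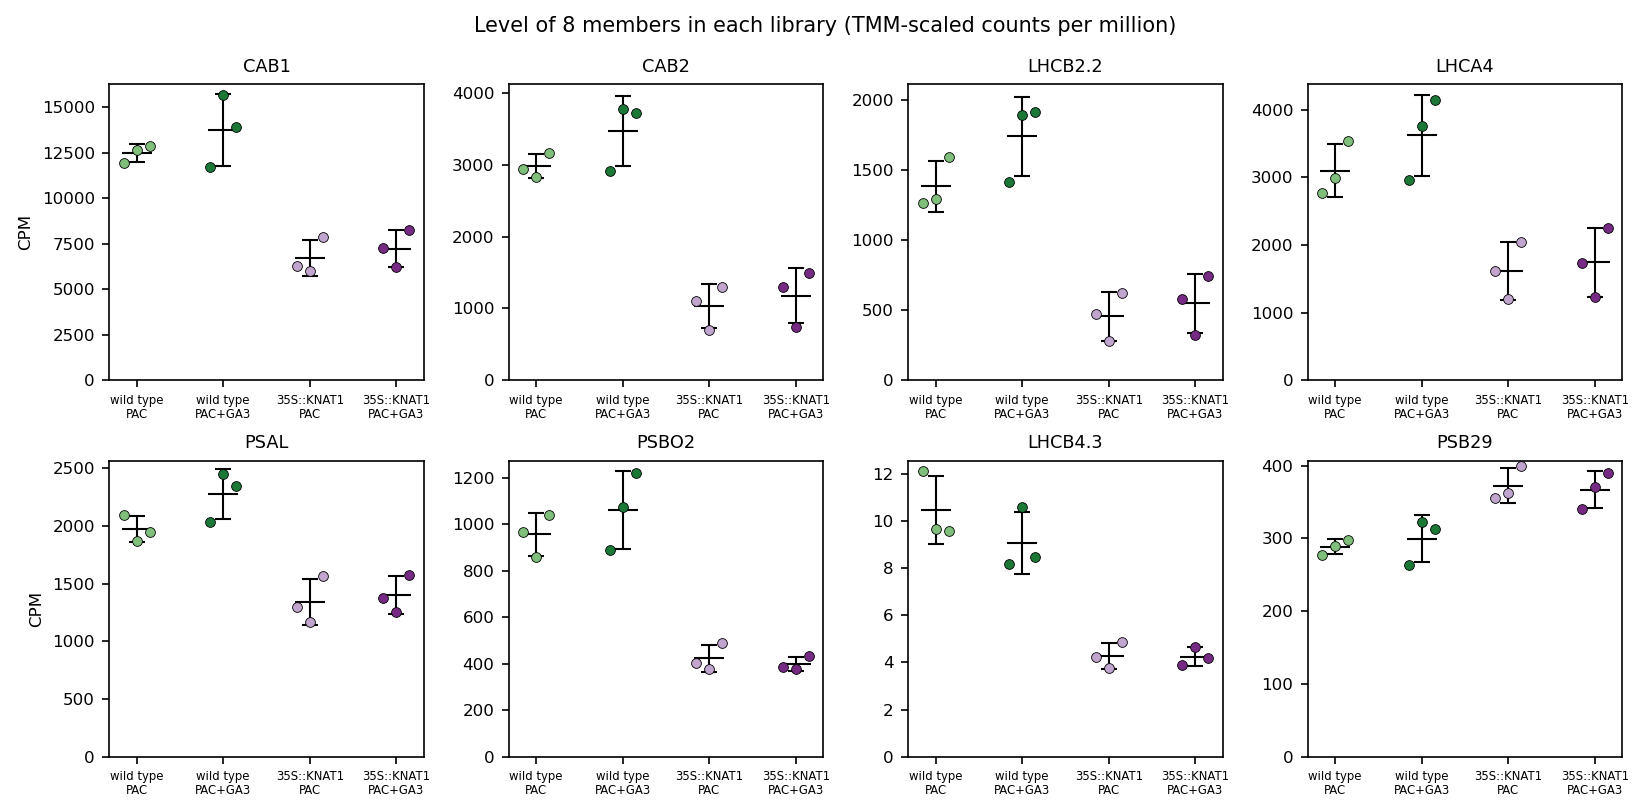
Level of 8 members in each library, in TMM-scaled CPM (y axis from 0), with the mean and SD of 3 replicates. For CAB1, CAB2, LHCB2.2, LHCA4, PSAL, PSBO2 and LHCB4.3 the 35S::KNAT1 libraries lie below the wild-type libraries of the same medium, and for PSB29 they lie above.

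All 5 Lhca genes, which encode the antenna of photosystem I, fell in both media, with medians of -0.75 under PAC and -0.90 under PAC+GA3. LHCA4 (AT3G47470) stood at 2775, 2988 and 3539 CPM in wild type and at 1610, 1197 and 2051 CPM in 35S::KNAT1 under PAC, a log2 difference of -0.94 ± 0.23 (adjusted p = 0.0106). LHCA3, the next highest per length, stood at 2152, 2205 and 2456 CPM in wild type and at 1321, 1085 and 1638 CPM in 35S::KNAT1, a difference of -0.75 ± 0.16 (adjusted p = 0.00258). LHCA5, a minor subunit at 91.5 CPM per kb over all libraries against 1448 or more for the others, changed least of the 5, with -0.47 ± 0.12 under PAC and -0.62 ± 0.12 under PAC+GA3.

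Of the 13 genes described as photosystem I subunits 12 fell in each medium, with medians of -0.55 and -0.76. PSAL, a subunit of the side where LHCII docks, stood at 2097, 1873 and 1951 CPM in wild type and at 1299, 1171 and 1563 CPM in 35S::KNAT1 under PAC (log2 difference -0.55 ± 0.12, adjusted p = 0.00221). PSAO, a small subunit of the same side, stood at 1280, 1217 and 1406 CPM in wild type and at 873, 747 and 1102 CPM in 35S::KNAT1 (-0.52 ± 0.16, adjusted p = 0.0249). The falls were largest for PSAD-2 (-0.96 ± 0.21), PSAK (-0.80 ± 0.15) and PSAN (-0.78 ± 0.19), which encode a ferredoxin-docking subunit, a membrane subunit and a lumenal subunit. PSAG (AT1G55670), which encodes a membrane subunit next to the Lhca belt, was the exception. It stood at 1187, 1125 and 1227 CPM in wild type and at 998, 956 and 1241 CPM in 35S::KNAT1, overlapped, and did not pass (-0.15 ± 0.12, adjusted p = 0.416). With GA3 its difference was -0.29 ± 0.12 (adjusted p = 0.0863). PTAC8, described as the P subunit of photosystem I and now known as the thylakoid-curvature protein CURT1B, fell by 0.67 (SE 0.12).

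The photosystem II subunits held the member with the smallest p. PSBO2 (AT3G50820), which encodes an isoform of the manganese-stabilising protein of the oxygen-evolving complex, stood at 969, 860 and 1042 CPM in wild type and at 404, 378 and 490 CPM in 35S::KNAT1 under PAC. Its log2 difference was -1.17 ± 0.12 (adjusted p = 1.57e-06), and with GA3 it was -1.41 ± 0.12 (adjusted p = 1.6e-07), from 889, 1076 and 1223 CPM in wild type and 388, 378 and 432 CPM in 35S::KNAT1. The genotypes were far apart, with no overlap, in both media. PSBO2 was the only PsbO gene among the tested members, so the level of PsbO transcripts as a whole was not read.

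Of the 11 photosystem II subunits tested 9 fell in each medium, with medians of -0.57 and -0.79. PSBR, which takes part in the assembly of the oxygen-evolving complex and was the highest per length, stood at 1905, 2124 and 2176 CPM in wild type and at 1112, 994 and 1375 CPM in 35S::KNAT1 under PAC (-0.83 ± 0.15, adjusted p = 0.000444). PSBP-1, the main PsbP gene, stood at 2801, 2741 and 2878 CPM in wild type and at 1665, 1526 and 2165 CPM in 35S::KNAT1 (-0.65 ± 0.14, adjusted p = 0.00181). Every 35S::KNAT1 library lay below every wild-type library for both. PSBY, a small membrane subunit, had the third smallest p of all members under PAC, at 1066, 836 and 987 CPM in wild type against 578, 504 and 649 CPM (-0.74 ± 0.11, adjusted p = 0.000107). The PsbQ genes PSBQA and PSBQ-2 fell by 0.63 (SE 0.12) and 0.48 (SE 0.14), and PSBX, PSBW and PSBTN, small subunits, by 0.43 to 0.57. AT1G51400, the 5 kD protein, overlapped between genotypes and did not pass in either medium (adjusted p = 0.318 and 0.0686). PSBP-2 stayed between 0.166 and 1.32 CPM in every library, too low for its difference to be read.

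The assembly factors and PsbP-like proteins were the most mixed group, with 6 falls and 1 rise of 13 under PAC (median -0.26) and 7 falls and 1 rise under PAC+GA3 (median -0.45). PSB27 (AT1G03600), a lumenal protein of photosystem II assembly and repair, stood at 252, 237 and 257 CPM in wild type and at 146, 145 and 173 CPM in 35S::KNAT1 under PAC (-0.69 ± 0.11, adjusted p = 0.000177), and its difference with GA3 was -0.92 ± 0.11 (adjusted p = 7.49e-06). HCF136 and PSB28, also assembly factors, both fell by 0.52 (SE 0.10). The PsbP-like genes AT1G77090, AT1G76450 and AT3G63540 fell by 0.44 to 0.52 under PAC. PPD1, PPD6, AT5G27390, AT3G05410 and AT1G69680, of the same protein family, lay between -0.18 and 0.04 and none passed in either medium.

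PSB29 (AT2G20890), a thylakoid-formation protein also known as THF1, was the only member that rose. It stood at 277, 290 and 298 CPM in wild type and at 355, 362 and 400 CPM in 35S::KNAT1 under PAC (0.37 ± 0.09, adjusted p = 0.00654). With GA3 it stood at 263, 323 and 313 CPM in wild type and at 340, 371 and 390 CPM in 35S::KNAT1 (0.29 ± 0.09, adjusted p = 0.0257). The genotypes did not overlap in either medium, but under PAC+GA3 the rise was not called in 4 of 21 alternative analyses.

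Within the members the antennae moved further than the cores. The summed Lhcb level divided by the summed level of photosystem I and II subunits was 1.40, 1.61 and 1.59 in wild type under PAC and 1.24, 1.14 and 1.28 in 35S::KNAT1. With GA3 it was 1.48, 1.58 and 1.54 in wild type and 1.33, 1.12 and 1.38 in 35S::KNAT1. The summed Lhca level divided by that of photosystem I subunits ran from 0.673 to 0.811 in wild type and from 0.583 to 0.661 in 35S::KNAT1 under PAC, and from 0.709 to 0.801 and from 0.577 to 0.692 with GA3. Neither ratio overlapped between the genotypes within a medium. Across the 56 members the log2 level per length and the genotype log2 difference under PAC had a Pearson's r of -0.40 and a Spearman's rho of -0.47, a description over genes that share their libraries and are not independent.

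In some pairs of genes for the same or a related protein the ratio differed between genotypes. For 7 pairs that share no 50-base window the log2 ratio of CPM is given as a description with no test, since the pairs were chosen after the levels were known. The ratio of PSAD-2 to PSAD-1 was -1.77 ± 0.16 (SD) in wild type and -2.19 ± 0.17 in 35S::KNAT1 under PAC, and lower by 0.41 over both media. The ratio to LHCB4.1 was lower in 35S::KNAT1 by 0.56 for LHCB4.2 and by 0.63 for LHCB4.3, and that of the photosystem II assembly gene PSB27 to its relative LPA19 was lower by 0.42. The PsaE pair went the other way: the ratio of PSAE-2 to PSAE-1 was -1.59 ± 0.14 in wild type and from -1.41 to -1.40 in 35S::KNAT1 under PAC, and higher by 0.24 over both media. In these 5 pairs the genotypes did not overlap in either medium. The differences were smaller for PSBQA against PSBQ-2 (-0.14) and PSAH2 against PSAH-1 (-0.15), whose groups overlapped under PAC. PSBP-1 and PSBP-2 were left out because PSBP-2 was near 0, and LHCB2.4 because both of its relatives share windows with each other.

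**Figure D4:**
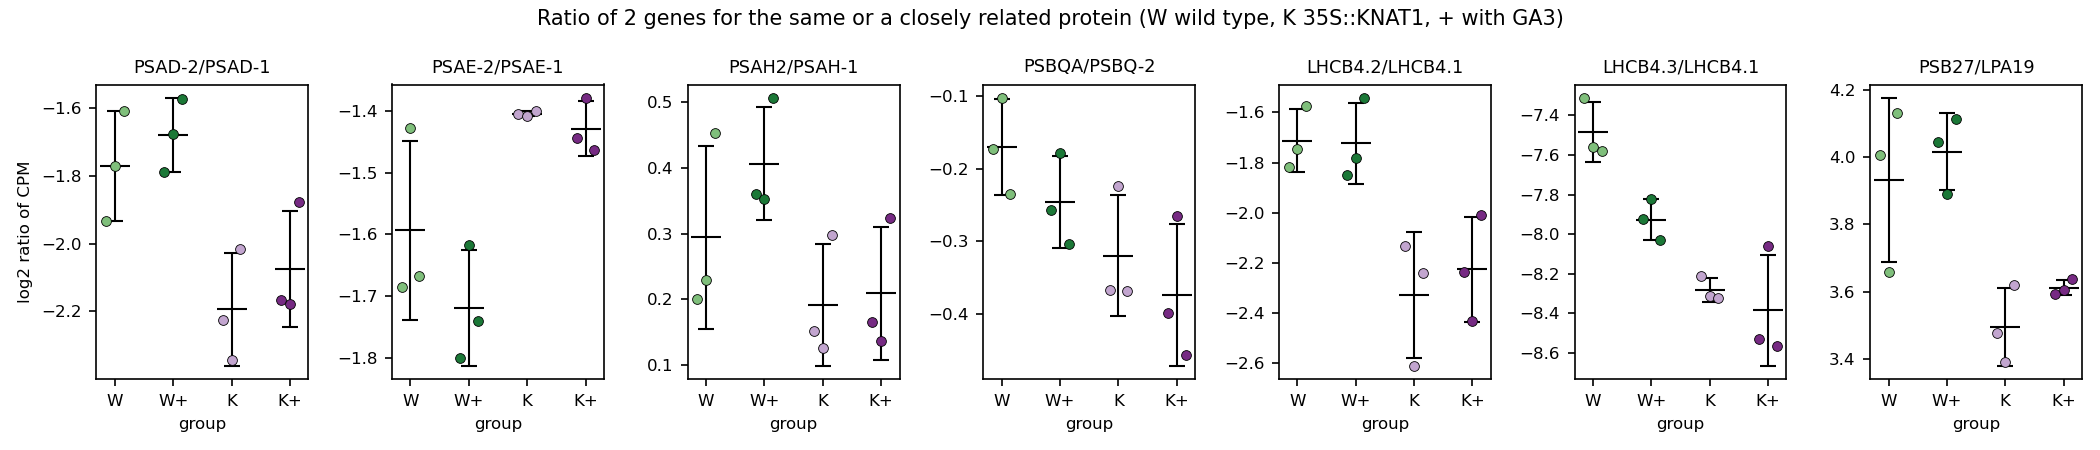
Log2 ratio of the CPM of 2 genes (y axis, scaled per panel) in each library, with the mean and SD of 3 replicates; W is wild type, K is 35S::KNAT1 and a plus sign marks GA3. The 35S::KNAT1 libraries lie below wild type for PSAD-2, LHCB4.2, LHCB4.3 and PSB27 and above it for PSAE-2.

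Adding GA3 for 5 h changed no member by the test. In wild type 0 of 56 members were called, against 0.0453% of all genes, and in 35S::KNAT1 0 were called, against 0.111% of all genes. In wild type 51 members lay above 0, with a median of 0.21, and 3 had an unadjusted p under the threshold. These were PSAE-1 (0.32, 95% interval 0.05 to 0.59, adjusted p = 0.494), PSAG (0.27, 0.02 to 0.52, adjusted p = 0.553) and PSBX (0.26, 0.00 to 0.52, adjusted p = 0.565). PSAE-1 stood at 978, 834 and 990 CPM under PAC and at 1004, 1311 and 1186 CPM with GA3. All GA3 libraries lay above all PAC libraries in 5 members (LHCB4.1, PSAE-1, PSAG, PSBX and PSBW), or 8.93%, against 5.89% of all genes. DESeq2 also called 0 members in either genotype.

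The wild-type shift sat in 2 of the 3 libraries. Replicate 1 of wild-type PAC+GA3 was the lowest of its group for 55 of the 56 members, and the summed member level was 70918 CPM there against a highest value of 94378 CPM in the group and 69063 to 78247 CPM under PAC. In 35S::KNAT1, replicate 3 was the highest for 53 members in each medium and replicate 2 the lowest for 47 under PAC and 42 with GA3, so the members' levels varied together between replicates. In 35S::KNAT1 the median GA3 difference was 0.06, 40 members lay above 0, and 0 had an unadjusted p under the threshold. The smallest p there belonged to AT1G69680, a PsbP-like gene, at 12.4, 11.9 and 12.5 CPM under PAC and 10.0, 10.8 and 10.8 CPM with GA3 (-0.22, 95% interval -0.47 to 0.03).

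The response to GA3 was not shown to differ between genotypes. The interaction test called 0 members and 0 of all genes (0% called), at an unadjusted p under the threshold in 0 members and 363 of all genes, and DESeq2 called 0 as well. The interaction lay below 0 in 53 members, with a median of -0.15. The smallest p belonged to PSB27 (-0.23, 95% interval -0.57 to 0.10, unadjusted p = 0.155). The half-width of these intervals had a median of 0.41 on the log2 scale, so a difference in response of that size could not be told from none.

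Upstream sequences of the members were searched for 4 elements known from light-regulated promoters, on both strands, in the window from 250 bases before to 50 after the gene start given in the count table. The G-box (CACGTG), bound by bZIP and bHLH factors, was found for 24 of 56 members (42.9%) against 8.2% of 26700 protein-coding nuclear genes. The I-box (GATAAG) was found for 31 members (55.4%) against 15.3%. The CCAAT element was found for 43 members (76.8%) against 50.6%, among them all 14 Lhcb genes, and TATAAA for 28 of 56 members against 50.7%. The G-box was most frequent in photosystem II subunits, with 9 of 12, and least in Lhcb genes, with 3 of 14. The median genotype difference under PAC was -0.52 for the 23 tested members with a G-box upstream of the start and -0.64 for the 32 without, and -0.55 for 27 with an I-box against -0.61 for 28 without. With CCAAT it was -0.62 for 39 members and without it -0.45 for 16. These are matches to short words, not bound sites.

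Upstream sequences of 4 members that fell show these layouts, with matches in capitals (an element on the other strand shows as its reverse complement). They are written 5′ to 3′ on the gene's strand, from the TAIR10.1 genome of RefSeq, and end just before the RefSeq gene start. CAB2 (minus strand, chr1:10475970-10476209) and LHB1B2 (minus strand, chr2:14523569-14523818) stand for the 2 Lhcb1 clusters and have CCAAT but no G-box. LHCA4 (minus strand, chr3:17495034-17495283) has 1 G-box, starting at position -88 from the gene start in the count table, and PSBQ-2 (minus strand, chr4:2673244-2673493) has 2, at -145 and -77, and an I-box at -15.
CAB2: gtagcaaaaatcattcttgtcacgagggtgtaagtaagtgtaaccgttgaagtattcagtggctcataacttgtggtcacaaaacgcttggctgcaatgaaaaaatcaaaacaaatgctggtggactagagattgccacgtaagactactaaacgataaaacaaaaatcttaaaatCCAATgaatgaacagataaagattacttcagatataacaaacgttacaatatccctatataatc
LHB1B2: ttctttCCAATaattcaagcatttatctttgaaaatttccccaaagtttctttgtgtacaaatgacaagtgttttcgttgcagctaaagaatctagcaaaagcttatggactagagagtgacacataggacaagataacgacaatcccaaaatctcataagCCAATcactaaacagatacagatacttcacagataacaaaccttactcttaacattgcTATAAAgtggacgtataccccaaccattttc
LHCA4: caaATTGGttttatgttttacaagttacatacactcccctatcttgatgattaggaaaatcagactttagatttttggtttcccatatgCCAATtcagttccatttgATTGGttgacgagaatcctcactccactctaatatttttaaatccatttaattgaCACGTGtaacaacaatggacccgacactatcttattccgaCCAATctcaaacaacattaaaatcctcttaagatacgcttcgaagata
PSBQ-2: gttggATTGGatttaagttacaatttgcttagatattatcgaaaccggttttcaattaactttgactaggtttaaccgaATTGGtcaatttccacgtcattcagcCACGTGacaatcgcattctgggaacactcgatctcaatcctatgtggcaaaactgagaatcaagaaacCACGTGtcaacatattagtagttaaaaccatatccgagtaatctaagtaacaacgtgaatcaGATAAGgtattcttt

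Other photosynthesis genes moved with the members to differing degrees. Over all genes tested 25.2% were called under PAC and 25.5% with GA3, in either direction. Of 17 genes for Rubisco and the Calvin cycle 16 fell in each medium (94.1%), with medians of -0.69 and -0.84. Among them were FBA1, a plastid aldolase (-1.10 ± 0.10 under PAC), the Rubisco activase RCA (-1.16 ± 0.12), GAPB, a plastid glyceraldehyde-phosphate dehydrogenase (-0.99 ± 0.10), and the Rubisco small subunit RBCS3B (-1.03 ± 0.11). Of 13 nuclear genes for electron carriers and the ATP synthase 11 fell under PAC and 12 with GA3, with medians of -0.55 and -0.69. Ferredoxin FD1 fell by 0.94 (SE 0.09) and PGR5, a protein of cyclic electron flow, by 1.18 (SE 0.13).

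Chlorophyll synthesis was split. Of 24 genes 9 fell and 1 rose under PAC (median -0.20), and 13 fell and 1 rose with GA3 (median -0.30). The share called was 41.7% and 58.3%, against 25.2% and 25.5% of all genes. Falls with the smallest p under PAC were those of the magnesium chelatase subunit CHLH (-1.04 ± 0.13), its activator GUN4 (-1.05 ± 0.12), the geranylgeranyl reductase CHLP (-0.71 ± 0.11) and the oxidase HEMG1 (-0.41 ± 0.07). HEMB1, HEMC, GSA1 and GSA2 of the early steps lay between 0.02 and 0.10 and did not pass. PORB, a light-dependent protochlorophyllide reductase, was the 1 that rose, at 549, 531 and 387 CPM in wild type and 716, 766 and 786 CPM in 35S::KNAT1 under PAC (0.63 ± 0.15, adjusted p = 0.00431). CAO, which makes the chlorophyll b that the antennae bind and was picked out after its value was seen, fell by 1.35 (SE 0.22, adjusted p = 0.00108).

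Of 15 genes for antenna targeting and photoprotection 8 fell under PAC (53.3%) and 9 with GA3 (60%), against 25.2% and 25.5% of all genes called. PSBS, the sensor of non-photochemical quenching, fell by 0.74 (SE 0.10) and CPSRP43, a chaperone for Lhc proteins, by 0.65 (SE 0.09). ELIP2, an early light-induced protein, stood at 4.42, 6.93 and 8.0 CPM in wild type and at 0.0862, 0.245 and 0.106 CPM in 35S::KNAT1 under PAC, and BCH2, a carotenoid hydroxylase, fell by 3.42 (SE 0.32). Of 17 regulators 4 fell and 2 rose under PAC, so 35.3% were called against 25.2% of all genes. With GA3 6 fell and 3 rose, or 52.9% against 25.5%. Under PAC HYH (-1.49 ± 0.18) and SIG1 (-0.96 ± 0.12), a bZIP factor of light signalling and a plastid sigma factor, fell. PIF1 (0.59 ± 0.09) and SIG2 (0.39 ± 0.08) rose. GLK2, a factor that activates Lhc genes, fell by 0.77 (SE 0.16), and its relative GLK1 lay at -0.20 (adjusted p = 0.31).

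**Figure D5:**
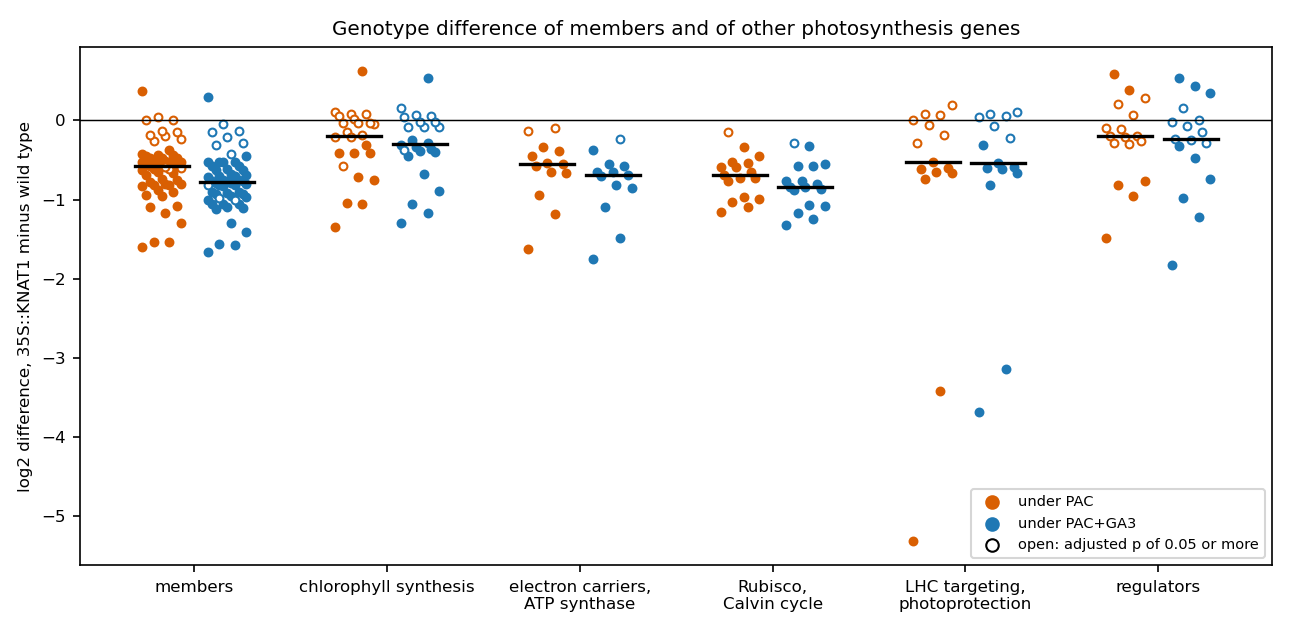
Log2 difference between 35S::KNAT1 and wild type (y axis) for the 56 tested members and the tested genes of 5 other lists, under PAC (orange) and PAC+GA3 (blue); black bars are medians and filled points passed the adjusted threshold of 0.05. The medians of the Calvin cycle genes lie at -0.69 and -0.84 and those of chlorophyll synthesis nearer 0, at -0.20 and -0.30.

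Markers of other cell types were few, and their counts are given beside the 25.2% of all genes called under PAC and 25.5% with GA3. Of 6 root hair markers 1 rose under PAC (16.7%), EXPA7, and 2 with GA3 (33.3%), EXPA7 and RSL4, and all 6 lay above 0 in both media; with GA3 their sum ran from 44.7 to 99.5 CPM in wild type and from 86.4 to 155 CPM in 35S::KNAT1. Of 6 root endodermis markers 1, CASP5, fell in each medium (16.7%), and their sum overlapped between genotypes, at 28.3 to 38.9 CPM and 29.9 to 35.1 CPM under PAC. Of 4 guard cell markers 2 fell under PAC and 1 with GA3. The guard cell sum ran from 39.6 to 47.7 CPM in wild type and from 30.3 to 33.1 CPM in 35S::KNAT1 under PAC. With GA3 it overlapped between genotypes, at 37.0 to 45.2 CPM in wild type and 29.1 to 38.4 CPM in 35S::KNAT1. The meristem gene STM fell by 1.38 (SE 0.33) under PAC, from 2.44 to 3.39 CPM in wild type to 1.03 to 1.22 CPM, while WUS had 0 counts in every library and CLV3 was too low to test. Their part in the lower photosystem and light-harvesting levels was not tested.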

How the data were processed

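Messenger RNA libraries of 12 seedling samples were analysed from the table of raw counts per gene that the authors deposited. The submitters' processing notes name cutadapt 1.8.3, FastQC 0.11.5, TopHat2 2.1, DESeq2 1.16.1, edgeR 3.0.2 and the TAIR10 build; how reads were assigned to genes, and whether by strand, is not given in the sources used here, so reads of overlapping and antisense genes may be mixed. The labels name a pair of extraction methods and a pair of library kits for every sample, without saying which was used.

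Of 32673 rows 25 were given another locus by their coordinates, among them PSBQA, whose row carried the ID of PSBQ-2, and 8 members took their symbol from the RefSeq gene table. Counts were tested as deposited in R 4.3.3 with edgeR 4.0.16: filterByExpr (minimum count 10), TMM scaling, robust quasi-likelihood fit of all 12 libraries in 4 groups, and Benjamini-Hochberg adjustment over 19879 genes. Each log2 difference is given with its SE, and CPM are TMM-scaled. The procedure was tested on simulated data. Alternatives were DESeq2 1.42.0, other scalings and filters, a replicate block and leaving out libraries. Replicates differed by more than sampling noise. The labels do not say whether replicate numbers pair the samples. Deviations of same-numbered samples from their group means had correlations of 0.25, 0.22 and 0.103 between genotypes under PAC. Under PAC+GA3 these were 0.134, -0.029 and 0.079, and between media they ran from 0.12 to 0.359. No column of per-sample values was left unmatched. Length is the RefSeq exon length within the gene span that the count table gives. Shared sequence was counted in 50-base windows of the whole RefSeq transcript.

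The members and gene lists were chosen with earlier results of these data known. Genes were named by rule. Any member could be named, and LHCA1, LHCA2 and PSAF are described only within their role groups. Values per library were given for members of the highest level and smallest p in each role. From each other list up to 4 with the smallest p were named. CAO, PORB, GLK1, GLK2, HEMB1, HEMC, GSA1, GSA2 and the marker genes were picked after their values were seen, as were the sequences shown and the gene pairs.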

Additional observations from a re-analysis of the deposited data

How the results depend on the processing

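No called member changed direction in any of 21 alternatives for the genotype comparisons. Of the 44 members called under PAC, 17 were called in all 21, and of the 46 called under PAC+GA3, 40 were. The count of members called lower ran from 34 to 44 under PAC and from 42 to 49 under PAC+GA3 when 1 library was left out. The count of 34 came without 35S::KNAT1 PAC replicate 2, and 1 member stayed called higher under PAC, against 0 to 1 under PAC+GA3, where PSB29 was lost without wild-type PAC+GA3 replicate 1 or either of 35S::KNAT1 PAC+GA3 replicates 2 and 3. PSB29 was also lost when only the groups compared were fitted under PAC+GA3 (0 called higher). Without the filter on low counts 2 members were called higher under PAC, the added one being AT4G37230 at its 0 to 7 counts. Without the 3 libraries of high organelle share 0 were called higher and 18 lower under PAC, where wild type was a single library assumed to vary like the other groups, while the members' median was -0.58 against -0.57. LHB1B2 lost its call in 7 of 21 alternatives under PAC and in 4 under PAC+GA3, PSAE-2 in 10 and PSAH2 in 6 under PAC, and CAB3 in 5 under PAC+GA3. With total-count scaling the median over all genes was 0.10 under PAC and 0.12 under PAC+GA3, the members' median was -0.48 and -0.67, and 66.5% of calls over all genes under PAC+GA3 were higher against 46.9%. The GA3 and interaction counts were 0 in every alternative run.

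With a replicate block 1 member was called higher and 43 lower under PAC, with CAB3 gained and LHB1B2 lost. Under PAC+GA3, where same-numbered samples of the 2 genotypes were little correlated, 1 was called higher and 49 lower, and the block added AT1G51400, PSAG, LHCB2.4 and PPD6. The block gave 0 calls for GA3 and for the interaction.

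Leaving out 1 library, an alternative chosen after seeing the data, moved the pair differences little: PSAD-2 against PSAD-1 ran from -0.46 to -0.37, and PSAH2 against PSAH-1 from -0.18 to -0.11. Motif windows set at the RefSeq gene start, also chosen after seeing the data since that start lies upstream of the table's for 46 members, gave a G-box for 20 members (35.7%, against 7.8% of all), an I-box for 23 (41.1%, against 14.6%), CCAAT for 42 (75.0%, against 51.7%) and TATAAA for 26 (46.4%, against 52.6%).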

Other observations

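The photosystem genes of the plastid genome, found by the same word in their description, varied too widely between replicates to show whether they followed the nuclear members. Of 18 such genes 16 were tested, and 0 were called in either medium by edgeR's quasi-likelihood test. Their median genotype difference was -2.08 under PAC and 0.70 under PAC+GA3. PSBA, the D1 protein of photosystem II, stood at 92.9, 397 and 292 CPM in wild type under PAC and at 83.5, 96.7 and 83.2 CPM in 35S::KNAT1. With GA3 it stood at 62.9, 118 and 127 CPM in wild type and at 1212, 58.0 and 107 CPM in 35S::KNAT1. The high values lay in the same 3 libraries whose organelle share was high, and the summed plastid photosystem level ran from 224 to 2370 CPM within 35S::KNAT1 PAC+GA3 alone.

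The summed nuclear member level is given beside that split. In wild type under PAC it was 69063 CPM in replicate 1, 71121 CPM in replicate 2 and 78247 CPM in replicate 3. For 35S::KNAT1 with GA3 replicate 1 held 45462 CPM, which lay between the 37206 and 54347 CPM of the other libraries of that group.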
